A study of Homo sapiens with 23 samples.

Results

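The 9 nucleotide supply enzymes described here are RRM1, RRM2, RRM2B, TYMS, TK1, DCK, SAMHD1, CDA and TYMP. They were chosen by function, as the rows of the expression table that carry the NCBI Gene IDs of these symbols, and 9 of the 9 were found among the 21658 genes of the table. The table holds RNA-seq values of 23 libraries from the ovarian cancer cell lines OV-90, Kuramochi, OVSAHO and EFO-21. Each line was present as a parental group and as a prexasertib-resistant group derived from it by long-term escalation of the drug concentration, with 3 libraries in each group and 2 in the parental OV-90 group. Prexasertib inhibits CHK1, the kinase that restrains origin firing and holds back the cell cycle when DNA replication is disturbed. The sources used here do not state how many resistant clones or pools were made of each line, nor whether the drug was present when RNA was taken.

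Cells make deoxynucleotides by reduction of ribonucleotides and by salvage of free nucleosides. Ribonucleotide reductase, the rate-limiting enzyme of the first route, joins a large catalytic subunit encoded by RRM1 to a small subunit encoded either by RRM2, which is made in S phase, or by RRM2B, a p53 target that serves resting and damaged cells. TYMS encodes thymidylate synthase, which methylates dUMP to dTMP, while TK1 and DCK encode the cytosolic kinases that salvage thymidine and deoxycytidine. SAMHD1 removes the phosphates from surplus dNTPs, CDA deaminates cytidine and deoxycytidine, and TYMP splits thymidine into thymine and a sugar phosphate. CHK1 signalling is known to sustain RRM2 during S phase, and the comparison of resistant with parental cells asks how the transcripts of these enzymes differ once the cells have adapted to CHK1 inhibition.

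The values are log2 expression levels that were quantile normalized over the libraries, so a change of 1 is a 2-fold change and a rise or fall shared by nearly all genes cannot be seen. No read counts were used, the depth of the libraries is unknown, and precision rests on the spread between the libraries of a group, which the labels call biological replicates. Libraries of a group correlated with r of 0.9711 to 0.9875, except the parental OV-90 pair at 0.9524, and 12 of 12 resistant libraries were closest to the parental libraries of their own line. KRT8 and KRT18, keratins of epithelial cells, lay above the library median in all 8 groups, whereas MUC16 and MSLN lay in the lowest 10% of the library in OV-90, WT1 in EFO-21, and CDH1 and MUC16 in resistant Kuramochi. The 10 markers of leukocytes, endothelium and fibroblasts had a summed level, as log2 of the summed linear values, of 12.47 to 13.28 in parental and 12.13 to 12.26 in resistant OV-90, against 6.28 to 10.32 in the other 6 groups, with COL1A1 and LUM above the median in both OV-90 groups. In Kuramochi the sum lay at 7.83 to 8.06 in parental and 8.61 to 8.70 in resistant libraries, in OVSAHO at 6.28 to 7.14 and 7.73 to 8.03, and in EFO-21 at 10.12 to 10.23 and 10.24 to 10.32.

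Markers also moved with resistance. At an adjusted p under 0.05 (limma, Benjamini-Hochberg over all genes), the 8 epithelial markers had 0 higher and 2 lower in resistant OV-90, 0 and 8 in Kuramochi, 0 and 7 in OVSAHO, and 2 and 4 in EFO-21. EPCAM, an adhesion molecule of epithelial cells, changed by -3.78 in Kuramochi and -3.01 in OVSAHO on the log2 scale. The 10 markers of other cell types had 0 higher and 1 lower in OV-90, 3 and 3 in Kuramochi, 4 and 4 in OVSAHO, and 2 and 2 in EFO-21. Over all genes, 18.1% were higher and 17.9% lower in OV-90, and 23.6% and 23.3% in Kuramochi. In OVSAHO the shares were 17.1% and 16.2%, and in EFO-21 25% and 23.4%. The counts for other cell types thus lay near or below the shares of all genes in every line but OVSAHO. DCN and LUM, proteoglycans of fibroblasts, were higher by 4.22 and 4.73 in resistant OVSAHO, and PECAM1, an endothelial marker, changed by -2.89 in OV-90. The part of these markers in the results below was not tested.

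Between resistant and parental cells, 5 to 8 of the 9 enzymes passed in each line, to be read against the shares of all genes given below. The set that changed and the direction were different from line to line. Changes also differed among the lines for 75.1% of all genes (F test, adjusted p under 0.05). A gene passed at an adjusted p under 0.05 (limma, Benjamini-Hochberg over all genes). In OV-90, 4 of 9 were higher and 2 lower in resistant cells, where 18.1% and 17.9% of all genes were. In Kuramochi, 4 were higher and 1 lower, against 23.6% and 23.3% of all genes. In OVSAHO, 5 were higher and 1 lower, against 17.1% and 16.2%, and in EFO-21, 4 were higher and 4 lower, against 25% and 23.4%. Changes of at least 2-fold that passed numbered 4 of 9 in OV-90, 0 in Kuramochi, 1 in OVSAHO and 2 in EFO-21, where the shares of all genes were 16.1%, 22.5%, 7.76% and 14.3%. The median change of the 9 was 0.49 in OV-90, 0.23 in Kuramochi, 0.32 in OVSAHO and 0.03 in EFO-21, beside medians over all genes of -0.06, -0.02, 0.00 and 0.01 on the log2 scale.

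In OV-90, the 6 calls rested on 2 parental libraries, and none passed (limma) when resistant library 13, 14 or 15 was left out, with adjusted p of 0.0653 to 0.11 for the 6 members. Unadjusted p was under 0.05 for 6 of 9 members in each of these fits, and the changes themselves moved little, as RRM2B lay between 1.75 and 1.87 and TYMP between -2.02 and -1.81. Without parental library 2 or 3, 7 of 9 passed, but these fits hold a single parental library, which is assumed to vary like the resistant ones. In Kuramochi, the 5 calls became 3 without resistant library 16. The share of all genes that passed in these reduced fits is not given here, so lost or gained calls are not read as particular to these enzymes.

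**Figure D1:**
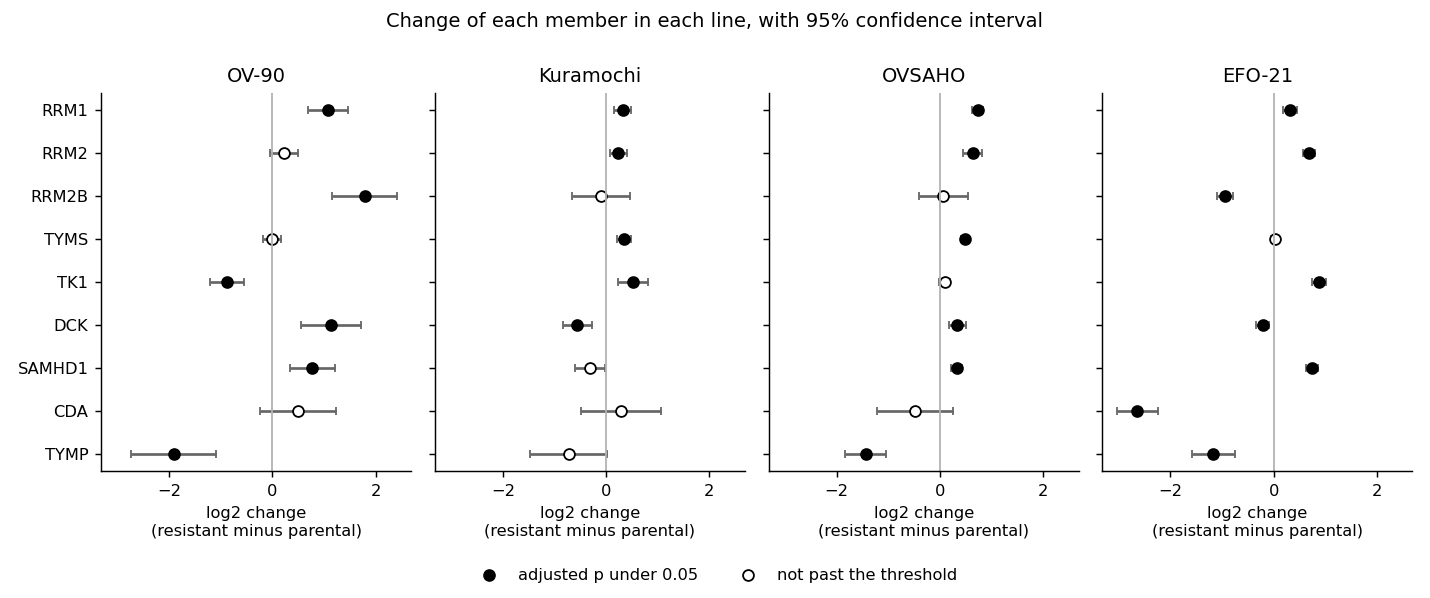
Change of each enzyme in each line, as the log2 level in resistant minus parental cells, with the 95% confidence interval of the limma fit. Filled points passed at an adjusted p under 0.05 and open points did not. RRM1 lies to the right of 0 in all 4 panels, TYMP lies to the left in all 4 with an open point in Kuramochi, and RRM2B, TK1 and DCK lie on opposite sides in OV-90 and EFO-21.

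RRM1 was the only member that was higher in resistant cells of all 4 lines with an adjusted p under 0.05. How many of all genes were higher in all 4 lines was not counted. The OV-90 call was lost without any 1 resistant library, with adjusted p of 0.0694 to 0.0802 (limma). In OV-90 the log2 levels of RRM1 were 8.16 and 8.63 in the parental libraries and 9.48, 9.45 and 9.49 in the resistant ones. In OVSAHO they went from 9.32, 9.38 and 9.47 to 10.07, 10.13 and 10.15. The change was 1.08 ± 0.15 (SE) in OV-90 (adjusted p = 0.0158) and 0.73 ± 0.05 in OVSAHO (adjusted p = 0.000327). Kuramochi moved less, from 9.01, 8.92 and 8.91 to 9.28, 9.35 and 9.18, a change of 0.32 ± 0.07 (adjusted p = 0.00859). EFO-21 moved from 8.93, 8.81 and 8.89 to 9.09, 9.23 and 9.24, a change of 0.31 ± 0.06 (adjusted p = 0.00562). In none of the 4 lines did a resistant library overlap with a parental one. Groups were also apart for some changes that did not pass, namely RRM2 in OV-90, TK1 in OVSAHO, and SAMHD1 and TYMP in Kuramochi. The share of all genes without overlap was not counted, so a lack of overlap is given here and below as description only.

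RRM2, the S-phase small subunit, was higher in resistant Kuramochi, OVSAHO and EFO-21 and did not pass in OV-90, the line that had the highest level to begin with. The parental EFO-21 libraries read 8.82, 8.69 and 8.82 and the resistant ones 9.40, 9.47 and 9.51, a change of 0.68 ± 0.05 (SE, adjusted p = 0.000193). OVSAHO rose from 8.72, 8.80 and 9.0 to 9.47, 9.46 and 9.51, a change of 0.63 ± 0.07 (adjusted p = 0.00211). The groups were apart in both lines. Kuramochi rose from 9.33, 9.28 and 9.26 to 9.54, 9.62 and 9.41, a change of 0.23 ± 0.07 (adjusted p = 0.0305) that no longer passed when parental library 5 or 6 or resistant library 16 or 17 was left out, with adjusted p of 0.0828 to 0.0998. In OV-90 the levels were 9.93 and 10.24 against 10.34, 10.27 and 10.31, and the change of 0.22 had a 95% interval of -0.05 to 0.49 (adjusted p = 0.153). It was 0.37 without parental library 3 and 0.07 without parental library 2 (adjusted p = 0.00633 and 0.249), and each of these fits rests on a single parental library. RRM2P3, a processed copy of RRM2 that is listed separately in the table, changed by 0.06 in OV-90, -0.13 in Kuramochi, 0.59 in OVSAHO and 0.39 in EFO-21, and since reads of RRM2 and the copy can be shared, the RRM2 values are uncertain to that degree.

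The promoters of RRM1 and RRM2 are shown because these genes were higher together in OVSAHO, EFO-21 and Kuramochi. Each run covers 250 bases before and 50 bases after an annotated start, from RefSeq on GRCh38.p14, in the direction of transcription, at chr11:4094435-4094734 for RRM1 and chr2:10122489-10122788 for RRM2, both on the plus strand. Capitals mark CCAAT, the box bound by the factor NF-Y, and, in RRM1, TTCAAA, the reverse complement of the cell cycle homology region TTTGAA.
RRM1: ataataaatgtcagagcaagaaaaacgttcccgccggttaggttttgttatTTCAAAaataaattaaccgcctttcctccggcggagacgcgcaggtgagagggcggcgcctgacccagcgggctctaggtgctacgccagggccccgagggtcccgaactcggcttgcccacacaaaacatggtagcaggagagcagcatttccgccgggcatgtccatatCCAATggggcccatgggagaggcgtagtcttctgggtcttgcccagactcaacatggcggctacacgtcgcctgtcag
RRM2: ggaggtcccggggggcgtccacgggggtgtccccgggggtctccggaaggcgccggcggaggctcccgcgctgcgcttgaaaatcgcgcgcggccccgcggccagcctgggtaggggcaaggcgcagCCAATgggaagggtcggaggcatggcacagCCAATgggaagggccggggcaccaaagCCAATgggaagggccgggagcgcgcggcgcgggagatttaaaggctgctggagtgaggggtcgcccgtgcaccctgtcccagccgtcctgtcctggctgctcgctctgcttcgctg
RRM2 holds 3 CCAAT boxes in this window, beginning at positions -123, -93 and -66 from the start, and RRM1 holds 1 at position -28. CCAAT is found on either strand in 34.61% of the 35116 promoters of the table and TTTGAA in 15.16%. Neither E2F motif searched, TTTCCCGC or TTTGGCGC on either strand, is in these windows, and 2.27% of promoters hold at least 1 of them. The interferon motif GAAANNGAA, present in 8.11% of promoters, was found in no window of the 8 members that are in the table. These matches are a description of letters only.

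RRM2B, the small subunit of the p53 response, changed in opposite directions in OV-90 and EFO-21 and did not pass in the other two lines. The parental OV-90 libraries read 4.40 and 5.04 and the resistant ones 6.59, 6.34 and 6.60, a rise of 1.79 ± 0.24 (SE, 3.45-fold, adjusted p = 0.0147). The rise was 1.20 after correction of the libraries for GC content and 1.09 for GC content and length (adjusted p = 0.0104 and 0.00832). In EFO-21, the level fell from 7.41, 7.26 and 7.31 to 6.44, 6.36 and 6.36, a change of -0.94 ± 0.06 (adjusted p = 0.000137). The groups did not overlap in either line, and the 2 resistant groups ended within 0.12 of each other on the log2 scale. Kuramochi had 7.03, 6.45 and 6.36 in parental and 6.64, 6.75 and 6.18 in resistant libraries, with an interval of the change from -0.65 to 0.47. OVSAHO had 5.29, 5.16 and 5.74 against 5.21, 5.62 and 5.55, with an interval from -0.41 to 0.55.

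Within each library, the balance of the subunit transcripts was followed as the difference of log2 levels, in which only the shift between groups can be read because the values are not per length. RRM2 minus RRM1 fell in OV-90 from 1.69 ± 0.12 (SD, n = 2) to 0.83 ± 0.02 (n = 3), and in EFO-21 it rose from -0.11 ± 0.03 to 0.27 ± 0.04 (n = 3 each). The shift was -0.86 in OV-90 and 0.37 in EFO-21, whereas Kuramochi and OVSAHO shifted by -0.08 and -0.09, so that both subunits moved nearly in parallel there. RRM2B minus RRM2 went from -5.36 ± 0.24 to -3.80 ± 0.12 in OV-90 and from -1.45 ± 0.05 to -3.07 ± 0.10 in EFO-21, shifts of 1.57 and -1.62 in opposite directions. OVSAHO shifted by -0.57 and Kuramochi by -0.32, with overlapping libraries in Kuramochi. Exact two-sided permutation tests gave p = 0.1 for each 3 against 3 comparison without overlap, which is the smallest p that design allows, p = 0.2 for both balances in OV-90 with 2 against 3, again the smallest, and p = 0.3 for RRM2B minus RRM2 in Kuramochi.

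**Figure D2:**
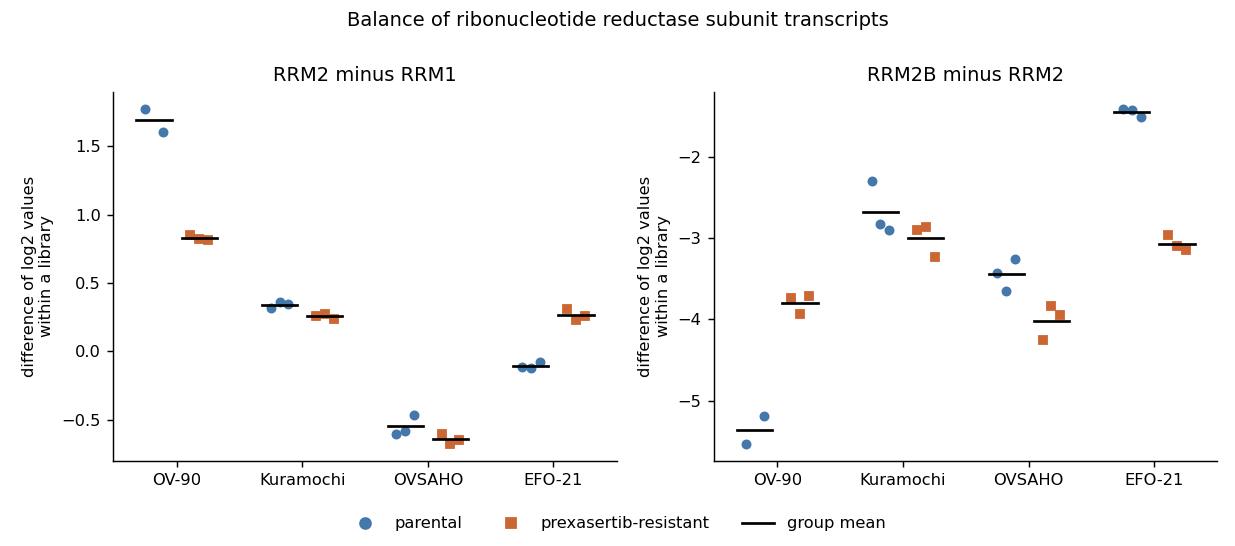
Differences of log2 levels within a library between RRM2 and RRM1 (left) and between RRM2B and RRM2 (right), with 1 point per library and a bar at the group mean. In OV-90 the resistant libraries lie below the parental ones on the left and above them on the right, and in EFO-21 the order is the other way round in both panels.

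The thymidylate genes TYMS and TK1 both rose in Kuramochi and parted in the other lines. TYMS was higher in resistant OVSAHO and Kuramochi, where its parental level was lowest, and near its parental level in OV-90 and EFO-21. The OVSAHO libraries moved from 9.92, 9.91 and 9.97 to 10.42, 10.39 and 10.44, a change of 0.48 ± 0.03 (SE, adjusted p = 0.000313). Kuramochi moved from 9.87, 10.03 and 9.98 to 10.30, 10.30 and 10.29, a change of 0.34 ± 0.06 (adjusted p = 0.00347). In both lines the resistant libraries lay above all parental ones. In OV-90 the levels were 11.21 and 11.36 against 11.28, 11.30 and 11.29 (interval of the change -0.17 to 0.18), and in EFO-21 they were 10.89, 10.82 and 10.85 against 10.85, 10.88 and 10.92 (interval -0.05 to 0.10). The EFO-21 change passed, at 0.10 and 0.17, once the libraries were corrected for GC content or for GC content and length.

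TK1 rose most in EFO-21 and fell in OV-90. EFO-21 went from 9.06, 8.98 and 9.14 to 10.01, 9.86 and 9.92, a change of 0.87 ± 0.06 (SE, adjusted p = 0.00013). OV-90 went the other way, from 10.75 and 10.39 to 9.72, 9.77 and 9.60, a change of -0.87 ± 0.13 (adjusted p = 0.0167) that became -0.65 with the GC correction and -0.37 with GC content and length corrected. The signs were opposite, and neither line had overlapping groups. Kuramochi rose from 9.29, 9.62 and 9.73 to 10.11, 9.98 and 10.11, by 0.52 ± 0.12 (adjusted p = 0.0132, and 0.0506 without resistant library 16). OVSAHO had 10.23, 10.20 and 10.25 in parental and 10.38, 10.25 and 10.32 in resistant libraries (change 0.09, interval -0.01 to 0.19, adjusted p = 0.14).

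The TYMS and TK1 promoters are shown as a pair because these genes feed the same dTMP pool by synthesis and by salvage, and each passed in lines where the other did not. They lie at chr18:657403-657702 on the plus strand and chr17:78187003-78187302 on the minus strand of GRCh38.p14 (RefSeq), each written in the direction of transcription. Capitals mark GCGGGAAA, the reverse complement of the E2F motif TTTCCCGC, in TYMS and ATTGG, the reverse complement of CCAAT, in TK1.
TYMS: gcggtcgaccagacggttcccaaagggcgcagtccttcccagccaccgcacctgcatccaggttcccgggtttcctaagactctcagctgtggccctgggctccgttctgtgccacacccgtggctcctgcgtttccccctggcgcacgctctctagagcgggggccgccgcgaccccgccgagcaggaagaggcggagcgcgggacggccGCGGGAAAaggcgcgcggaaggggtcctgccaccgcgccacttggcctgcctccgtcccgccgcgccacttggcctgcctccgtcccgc
TK1: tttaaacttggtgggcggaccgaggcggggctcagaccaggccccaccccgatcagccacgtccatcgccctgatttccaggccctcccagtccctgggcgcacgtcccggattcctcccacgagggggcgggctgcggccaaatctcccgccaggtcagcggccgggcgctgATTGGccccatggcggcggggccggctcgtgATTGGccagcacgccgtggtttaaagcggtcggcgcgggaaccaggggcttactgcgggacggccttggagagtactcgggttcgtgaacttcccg
The E2F-type match of TYMS begins at position -39, and TTTCCCGC is present in 1.63% of all promoters. The ATTGG matches of TK1 begin at -77 and -46, and the other annotated TK1 start had none of the motifs. Among the remaining members, CDA holds TTTCCCGC at position -3 and DCK the reverse complement of TTTGGCGC at position 22, while SAMHD1 holds CCAAT at -49 and -38.

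DCK, the kinase that also activates cytidine drugs such as gemcitabine, was higher in resistant OV-90 and OVSAHO and lower in resistant Kuramochi and EFO-21. In OV-90 the parental libraries read 6.42 and 7.13 and the resistant ones 7.91, 7.87 and 7.96, a change of 1.14 ± 0.22 (SE, 2.20-fold, adjusted p = 0.0258) that became 0.57 with the GC correction and 0.85 with GC content and length corrected. In Kuramochi the level fell from 7.55, 7.18 and 7.21 to 6.80, 6.77 and 6.71, a change of -0.56 ± 0.12 (adjusted p = 0.00974). Each of these changes was larger than the spread of its libraries, and the parental OV-90 pair lay further apart than any other pair of a group. OVSAHO moved from 7.44, 7.41 and 7.62 to 7.82, 7.87 and 7.77 (change 0.33 ± 0.07, adjusted p = 0.014), and EFO-21 from 8.53, 8.41 and 8.50 to 8.20, 8.26 and 8.33 (change -0.22 ± 0.05, adjusted p = 0.0156). The OVSAHO and EFO-21 calls depended on single libraries, as OVSAHO had an adjusted p of 0.055 without resistant library 20 and EFO-21 had 0.0522 and 0.0542 without parental library 10 or 12.

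SAMHD1, the dNTP hydrolase, was higher in the resistant cells of 3 lines. EFO-21 went from 6.82, 6.84 and 6.78 to 7.52, 7.58 and 7.57, a change of 0.74 ± 0.05 (SE, adjusted p = 0.000108). OV-90 went from 6.42 and 6.90 to 7.44, 7.37 and 7.50, a change of 0.78 ± 0.17 (adjusted p = 0.0293) that became 0.64 and 0.33 with the same corrections. OVSAHO went from 7.68, 7.63 and 7.76 to 8.01, 7.99 and 8.04, a change of 0.32 ± 0.05 (adjusted p = 0.00419). No resistant library overlapped with a parental one in these lines. Kuramochi had 6.25, 6.01 and 6.17 in parental and 5.84, 5.94 and 5.73 in resistant libraries (change -0.31, interval -0.60 to -0.02, adjusted p = 0.0798), a change that passed after correction for GC content, at -0.34 (adjusted p = 0.0442).

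TYMP, the first of the enzymes of nucleoside breakdown, was lower in resistant cells of OV-90, OVSAHO and EFO-21, with the same sign in Kuramochi. In OV-90 it went from 6.01 and 5.22 to 3.93, 3.50 and 3.69, a change of -1.91 ± 0.31 (SE, 3.76-fold lower, adjusted p = 0.0198). In OVSAHO it went from 4.55, 4.43 and 4.28 to 2.83, 2.99 and 3.13, a change of -1.44 ± 0.16 (adjusted p = 0.00192). In EFO-21 it went from 5.36, 5.63 and 5.32 to 4.49, 4.27 and 4.04, a change of -1.17 ± 0.17 (adjusted p = 0.0024). Every resistant library of these lines lay below every parental one. Kuramochi began low, at 2.40, 2.78 and 3.48, and the resistant libraries read 2.25, 2.13 and 2.10, a change of -0.73 with an interval of -1.47 to 0.02 (adjusted p = 0.0974). Without parental library 4 it was -0.97 (adjusted p = 0.0373), and without parental library 6 it was -0.43 (adjusted p = 0.153).

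CDA was measured well in only 2 of the 4 lines. In Kuramochi and OVSAHO its libraries read 0.36 to 1.88, and 11 of these 12 values lay in the lowest 10% of their library, whose upper bound was 1.70 to 1.87, so differences there are not measured fold changes. EFO-21 fell from 6.11, 6.17 and 6.02 to 3.73, 3.24 and 3.40, a change of -2.64 ± 0.16 (SE, 6.24-fold lower, adjusted p = 0.000112). This was the largest change of any member in any line. OV-90 had 7.10 and 6.22 in parental and 7.02, 7.20 and 7.24 in resistant libraries, with an interval of the change from -0.24 to 1.23 (adjusted p = 0.218). It was 0.93 without parental library 2 and 0.05 without parental library 3 (adjusted p = 0.0202 and 0.726), each fit resting on a single parental library, and it passed at 1.10 after correction for GC content and length (adjusted p = 0.0141).

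The TYMP promoter is shown because this member was lower in the resistant cells of 3 lines, at chr22:50529963-50530262 on the minus strand of GRCh38.p14 (RefSeq), with ATTGG in capitals.
TYMP: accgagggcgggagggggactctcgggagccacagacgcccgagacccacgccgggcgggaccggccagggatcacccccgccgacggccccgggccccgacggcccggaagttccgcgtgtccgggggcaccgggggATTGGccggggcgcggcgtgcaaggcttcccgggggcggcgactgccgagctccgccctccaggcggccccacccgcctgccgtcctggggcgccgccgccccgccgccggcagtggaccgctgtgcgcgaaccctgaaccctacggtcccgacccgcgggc
The window is 80.3% G or C, and its single match begins at position -112. A second annotated start lies nearby and shares the match.

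**Figure D3:**
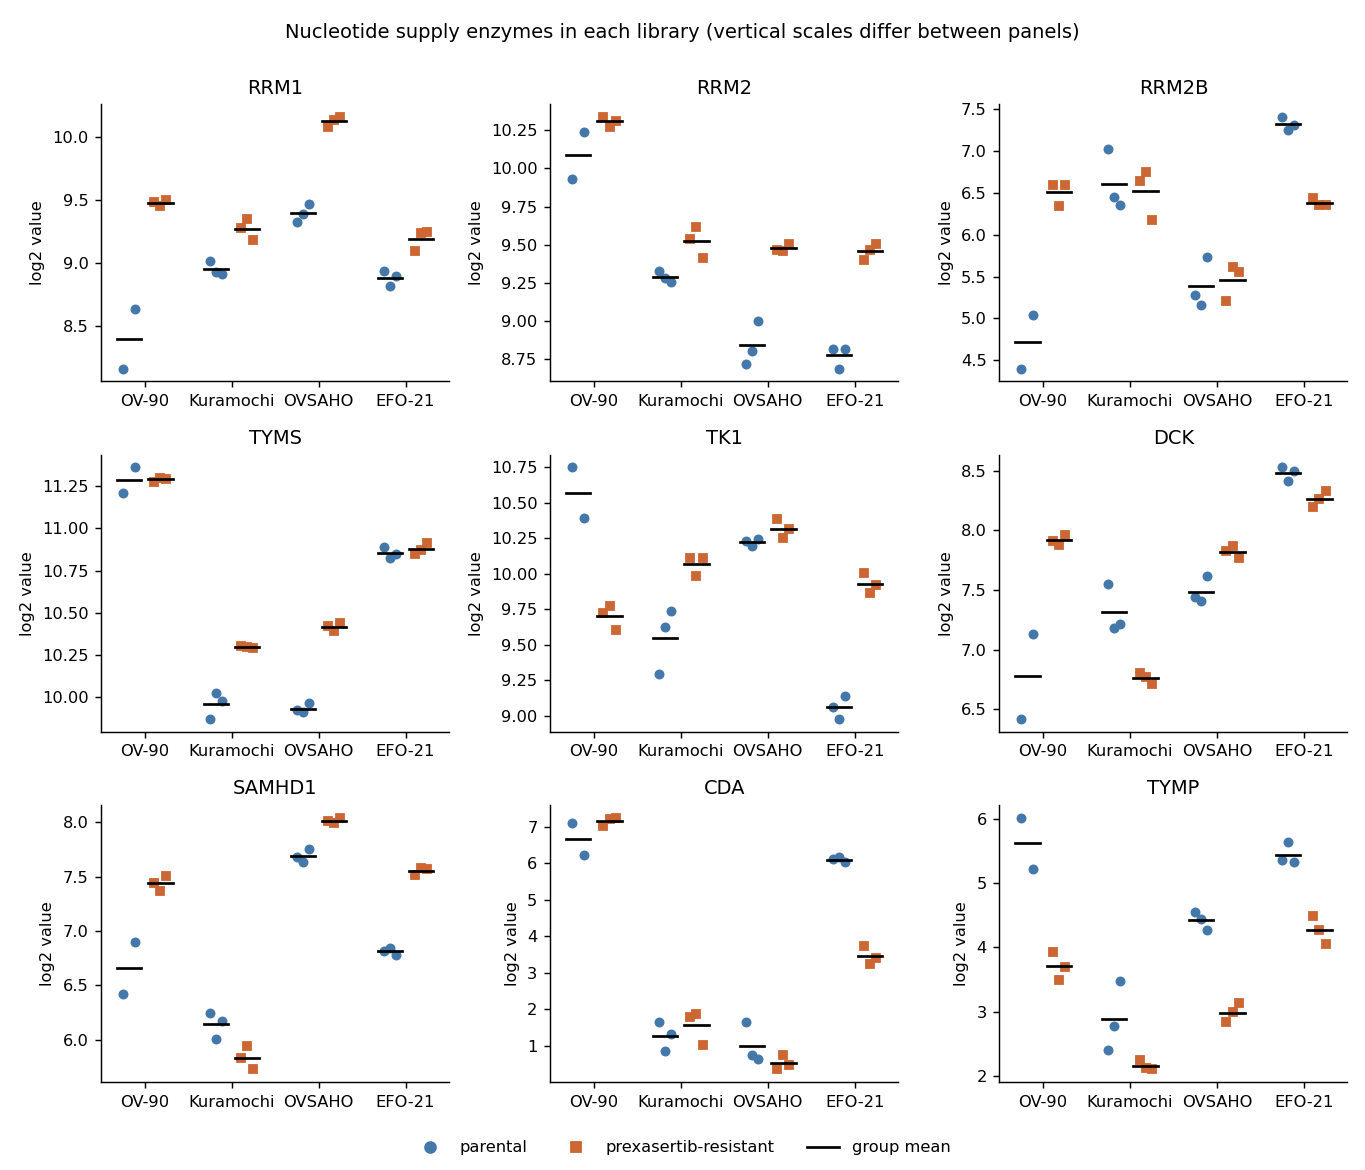
Log2 level of each enzyme in each library, with parental libraries as circles, resistant libraries as squares and a bar at each group mean. The vertical scales differ between panels, and levels should be compared within a panel only. The panels show the lower mean TYMP of all resistant groups, a change that did not pass in Kuramochi. They also show the fall of CDA from 6.10 to 3.46 in EFO-21 and its low level in Kuramochi and OVSAHO. A wide gap separates the 2 parental OV-90 libraries for DCK, RRM2B, CDA and TYMP.

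Averaged over the lines with the line as a block, RRM1 was higher by 0.58 ± 0.08 (SE, adjusted p = 3.56e-05), RRM2 by 0.45 ± 0.06 (adjusted p = 3.46e-05), SAMHD1 by 0.36 ± 0.11 (adjusted p = 0.016) and TYMS by 0.22 ± 0.05 (adjusted p = 0.00371). TYMP was lower by 2.42-fold, a change of -1.28 ± 0.16 (adjusted p = 9.57e-06). These 4 higher and 1 lower of 9 stand beside 16.4% and 16.6% of all genes. This fit takes libraries as its units, so its SE and p do not measure the spread between the 4 lines. The means therefore describe these lines only, and SAMHD1 had a change of -0.31 in Kuramochi that did not pass. RRM2B, TK1, DCK and CDA had mean changes of 0.12, 0.21, 0.12 and -0.64 that did not pass, and for RRM2B, TK1 and DCK the lines with significant changes had opposite signs. SAMHD1 lost its call without OV-90, OVSAHO or EFO-21 (adjusted p of 0.0662 to 0.201), and TYMS lost it without OVSAHO (adjusted p = 0.0893).

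The changes differed among the lines for each of the 9 members by the F test of the interaction, which 75.1% of all genes passed. TK1 gave the smallest adjusted p, at 5.29e-08, and TYMP the largest, at 0.0384. When the change in 1 line was set against the mean change of the other 3, 9 members passed for OV-90, 8 for Kuramochi, 2 for OVSAHO and 8 for EFO-21, where 50.4%, 54.1%, 30.3% and 42.2% of all genes did. The RRM2B change differed from that of the other lines by 2.11 in OV-90 and by -1.53 in EFO-21 (adjusted p = 3.11e-06 and 3.94e-05). The p-values of these contrasts use a spread pooled over all groups. The parental OV-90 pair varied more, with an SD of 0.45 for RRM2B against 0.05 to 0.36 in the other groups. In the limma fit of OV-90 alone, the RRM2B change had an adjusted p of 0.0147. The TK1 change differed by -1.37 in OV-90 and 0.96 in EFO-21, and the CDA change by -2.74 in EFO-21 (adjusted p = 1.06e-07, 2.05e-06 and 4.68e-06). The CDA difference takes in the values of Kuramochi and OVSAHO, where the level is too low to be read, so it is not a measured fold difference. For OVSAHO only RRM2 and TYMS passed, by 0.26 and 0.36.

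Before resistance, the lines already differed in these enzymes. Of the 54 comparisons between parental groups (9 members and 6 pairs of lines), 46 passed, where 73% of all such comparisons over the whole table did. Parental OV-90 had the highest RRM2, TYMS and TK1 and the lowest RRM1 and RRM2B. Its TYMS level of 11.29 ± 0.11 (SD, n = 2) exceeded that of OVSAHO, 9.93 ± 0.03 (n = 3), by 1.35 (adjusted p = 2.06e-14). The parental comparisons were not corrected for GC content, and their p-values use a spread pooled over all groups. For GC-poor genes, the parental OV-90 libraries stood furthest from the mean over all libraries, at -0.52 and -0.22. RRM2B and TK1 lie at GC percentiles 1.3 and 85.5, and the part of GC content in these parental levels was not tested. Parental EFO-21 had the highest RRM2B, at 7.32 ± 0.08, and the highest DCK, at 8.48 ± 0.06 (n = 3). SAMHD1 was highest in parental OVSAHO, at 7.69 ± 0.06, and lowest in parental Kuramochi, at 6.14 ± 0.12 (n = 3 each). CDA and TYMP were high in OV-90 and EFO-21, with CDA at 6.66 ± 0.62 (n = 2) and 6.10 ± 0.07 (n = 3) against 1.28 ± 0.40 in Kuramochi and 1.01 ± 0.56 in OVSAHO. The 8 comparisons that did not pass were SAMHD1, CDA and TYMP between OV-90 and EFO-21, TYMS, DCK and CDA between Kuramochi and OVSAHO, RRM1 between Kuramochi and EFO-21, and RRM2 between OVSAHO and EFO-21. Over all 8 groups, RRM1 ranged from 8.40 in parental OV-90 to 10.12 in resistant OVSAHO, and RRM2 from 8.78 in parental EFO-21 to 10.31 in resistant OV-90, while the RRM2 levels of the resistant groups of Kuramochi, OVSAHO and EFO-21, at 9.52, 9.48 and 9.46, overlapped in their order.

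On GRCh37, with GENCODE gene models, the members are protein-coding genes on 9 different chromosomes. RRM1 lies at 11:4115937-4160162 on the plus strand, RRM2 at 2:10260825-10351851 (plus), RRM2B at 8:103216730-103251189 (minus), TYMS at 18:657653-673578 (plus), TK1 at 17:76170172-76183314 (minus), DCK at 4:71858255-71896631 (plus), SAMHD1 at 20:35518632-35580296 (minus), CDA at 1:20915579-20945396 (plus) and TYMP at 22:50964181-50968461 (minus). The value of a gene summarises its exons. Exons of 4 members share bases with a neighbour that is also in the table, and although the library kit marks strand, the sources used here do not say whether counting used it. SAMHD1 shares 1068 exonic bases with TLDC2 on the other strand, and TLDC2 changed by -0.59 in Kuramochi and 0.75 in EFO-21, which passed (adjusted p = 0.0453 and 0.00375), and by 0.30 in OV-90 and 0.33 in OVSAHO, which did not (adjusted p = 0.21 and 0.0721). TYMP shares 361 bases with SCO2 on its own strand, and SCO2 was lower in OV-90, OVSAHO and EFO-21, with changes of -1.51, -0.53 and -0.38 that passed, and had a change of -0.22 in Kuramochi that did not pass. DCK shares 199 bases with MOB1B on its own strand. MOB1B changed by 2.29 in OV-90 and 0.76 in OVSAHO, which passed, and by -0.40 in Kuramochi and 0.16 in EFO-21, which did not. TYMS shares 967 bases with ENOSF1 and 193 with TYMSOS, both on the other strand. ENOSF1 changed by -0.70 in OV-90, 0.90 in Kuramochi, -1.98 in OVSAHO and -0.50 in EFO-21, and each of these passed. TYMSOS changed by -1.61 in OV-90 and 1.66 in Kuramochi, which passed, and by 0.16 in OVSAHO and -0.24 in EFO-21, which did not. TYMS itself was higher in Kuramochi, as both neighbours were, and in OVSAHO, where ENOSF1 was lower. The part of shared reads in the changes of SAMHD1, TYMP, DCK and TYMS was not tested.

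Transcript composition moved with the OV-90 comparison. Over 14688 genes, the change in OV-90 had a correlation across genes of -0.30 with the GC content of the canonical transcript and of 0.46 with its log length, and the median change was 0.43 in the fifth of genes with the lowest GC content and -0.30 in the fifth with the highest. The correlation with GC content was -0.17 in OVSAHO, 0.14 in EFO-21 and 0.00 in Kuramochi. Parental OV-90 library 2 stood furthest out, with GC-poor genes at a median of -0.52 from their mean over all libraries, and parental library 3 followed at -0.22. RRM2B (35.1% GC, percentile 1.3 of the genes) and DCK (35.4%, percentile 1.7) are among the most GC-poor transcripts, and TYMP (69.4%, percentile 99.5) is among the most GC-rich, so these members lie at the ends of the GC range.

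**Figure D4:**
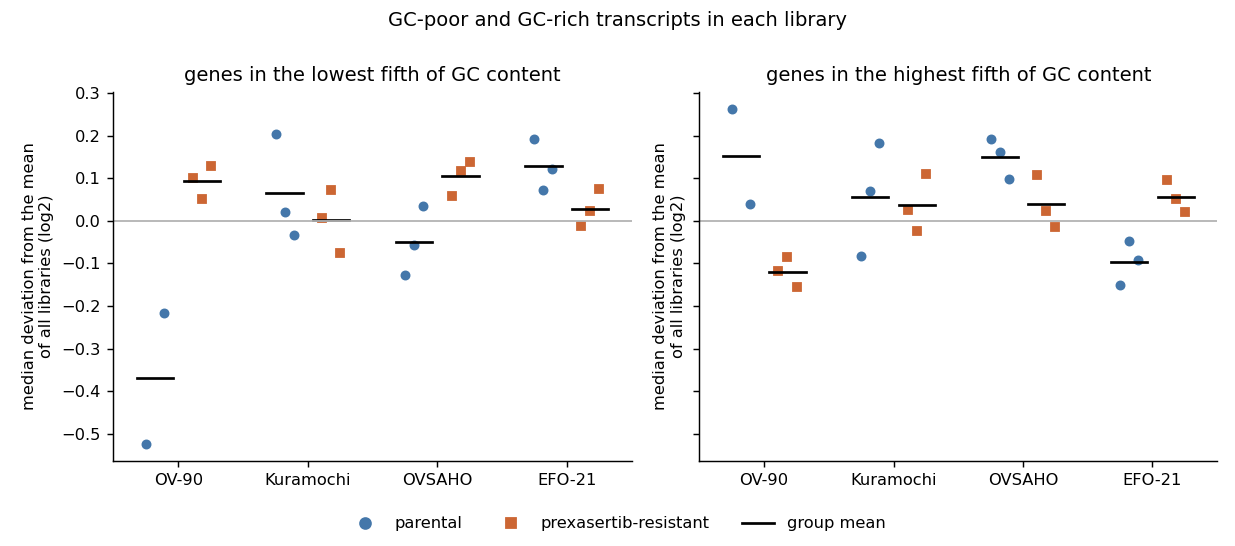
Median deviation of GC-poor (left) and GC-rich (right) genes from their mean over the 23 libraries, on the log2 scale, with 1 point per library and a bar at the group mean. The parental OV-90 libraries lie at -0.52 and -0.22 on the left, and the resistant OV-90 libraries at 0.05 to 0.13.

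With each library corrected for its trend on GC content, the OV-90 changes became 1.20 for RRM2B, 0.57 for DCK, 0.82 for RRM1, 0.64 for SAMHD1, -0.65 for TK1 and -1.61 for TYMP, and each of the 6 still passed (adjusted p of 0.00882 to 0.0277). With GC content and length corrected together, they were 1.09, 0.85, 0.82, 0.33, -0.37 and -1.46 in the same order, and again each passed. The opposite directions of RRM2B and TK1 in OV-90 and EFO-21 were thus present in the corrected values too, with EFO-21 at -0.81 for RRM2B and 0.76 for TK1 after correction for GC content. The DCK change in OVSAHO was 0.13 with the GC correction, which did not pass, and 0.21 with GC content and length corrected, which did (adjusted p = 0.114 and 0.0201), and in EFO-21 it was -0.09 and -0.04, neither of which passed (adjusted p = 0.0658 and 0.353). With the GC correction, TK1 passed in OVSAHO at 0.20 (adjusted p = 0.00836). TYMP was lower in all 4 lines after this correction, with Kuramochi at -0.69 (adjusted p = 0.0479). The corrected fits were adjusted over 19085 genes rather than all genes of the table, and the share of genes that passed in them is not given here. Calls kept, gained or lost with the corrections are therefore not read as particular to these enzymes.

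The wider nucleotide pathway was described with 63 further genes, of which 60 were measured. In OV-90, 7 were higher and 18 lower in resistant cells, in Kuramochi 19 and 19, in OVSAHO 19 and 10, and in EFO-21 23 and 13, with median changes of -0.11, 0.04, 0.08 and 0.10. Over all genes, the shares higher and lower were 18.1% and 17.9% in OV-90, 23.6% and 23.3% in Kuramochi, 17.1% and 16.2% in OVSAHO, and 25% and 23.4% in EFO-21, and the counts of each list below are to be read against them. Of the 14 genes of purine synthesis, 3 rose and 4 fell in OV-90, 5 and 3 in Kuramochi, 9 and 2 in OVSAHO, and 8 and 1 in EFO-21. PPAT, which commits PRPP to purines, and PFAS, which acts later in the same route, rose in OV-90 (1.0 and 0.97), OVSAHO (0.37 and 0.27) and EFO-21 (0.29 and 0.32). PRPS1 and PRPS2, the synthetases of PRPP, rose in Kuramochi (2.06 and 1.18), OVSAHO (0.17 and 0.58) and EFO-21 (0.42 and 0.34). ADSL, the adenylosuccinate lyase, fell in all 4 lines, by changes of -0.41, -0.56, -0.13 and -0.18 in OV-90, Kuramochi, OVSAHO and EFO-21.

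Among the 6 pyrimidine synthesis genes, CAD, which carries the first 3 steps, rose in Kuramochi, OVSAHO and EFO-21 by 0.38, 0.85 and 0.75, and CMPK1 rose by 1.11 in OV-90. Of the 10 genes of the thymidylate cycle and dUTP control, 0 rose and 4 fell in OV-90, among them DUT, the dUTP hydrolase, at -1.08. In Kuramochi 2 rose and 3 fell, with SHMT1 at 1.5 and MTHFD2L at -1.38, and in OVSAHO 1 rose and 0 fell. In EFO-21 3 rose and 3 fell, with the mitochondrial folate enzymes MTHFD1L and SHMT2 at -1.42 and -1.0.

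Among the 11 other salvage genes, DGUOK, the mitochondrial deoxyguanosine kinase, fell in OV-90, Kuramochi and OVSAHO by -0.72, -0.62 and -0.29. CMPK2, a mitochondrial kinase induced by interferon, rose by 1.41 in EFO-21, and PNP, which splits purine nucleosides, changed by -1.08 in Kuramochi. Over this list, 0 rose and 4 fell in OV-90, 5 and 3 in Kuramochi, 3 and 2 in OVSAHO, and 3 and 3 in EFO-21. Of 14 breakdown and pool-cleaning genes measured, ITPA, which removes inosine triphosphate, fell in all 4 lines, with changes of -0.62, -1.21, -0.29 and -0.61. NT5E, the ectonucleotidase CD73, rose in OV-90, Kuramochi and OVSAHO by 1.71, 2.89 and 1.63 and fell in EFO-21, by a change of -0.75. The counts for this list were 2 up and 4 down in OV-90, 4 and 6 in Kuramochi, 1 and 4 in OVSAHO, and 6 and 4 in EFO-21. Of 5 nucleoside transporters, SLC29A4 rose in Kuramochi, OVSAHO and EFO-21 by 0.70, 0.70 and 1.07, SLC28A3 rose by 1.65 in OV-90, and SLC29A2 changed by -2.06 in Kuramochi. SLC29A1, the equilibrative transporter that carries many nucleoside drugs, fell in OV-90 and Kuramochi (-0.48 and -0.84) and rose in OVSAHO and EFO-21 (0.27 and 0.32).

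The S phase and cycling list of 24 genes is given beside the members because RRM1, RRM2, TYMS and TK1 are expressed mainly around S phase. It held 8 higher and 2 lower genes in OV-90, 4 and 7 in Kuramochi, 14 and 1 in OVSAHO, and 17 and 2 in EFO-21, with median changes of 0.09, 0.03, 0.29 and 0.43. The shares over all genes were again 18.1% and 17.9%, 23.6% and 23.3%, 17.1% and 16.2%, and 25% and 23.4% in the same order, so the Kuramochi counts lie near those of all genes. MCM4 of the replicative helicase rose in OV-90, OVSAHO and EFO-21 by 1.10, 0.54 and 0.78, and CDC6, which loads that helicase, rose in Kuramochi, OVSAHO and EFO-21 by 0.21, 0.40 and 0.43. Other helicase subunits differed by line. In OV-90, MCM5 fell (-0.77) and MCM2, MCM3, MCM6 and MCM7 did not pass. In Kuramochi, MCM2 fell (-0.28) and the other subunits, MCM4 included, did not pass. MCM2 and MCM5 rose in OVSAHO (0.52 and 0.35) and in EFO-21 (0.90 and 0.54). PCNA, the sliding clamp, fell in OV-90 and Kuramochi (-0.30 and -0.75) and rose in OVSAHO and EFO-21 (0.17 and 0.35). CCNA2, which encodes cyclin A2, fell in Kuramochi and EFO-21 (-0.83 and -1.05) and did not pass in OV-90 or OVSAHO. E2F2 changed by -1.22 in Kuramochi and passed with the opposite sign in EFO-21. CHEK1, which encodes the drug target, rose by 2.63 in Kuramochi and changed by -0.10 to 0.07 in the other lines without passing. In bulk libraries, a larger share of cycling cells and more transcript per cell cannot be told apart.

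**Figure D5:**
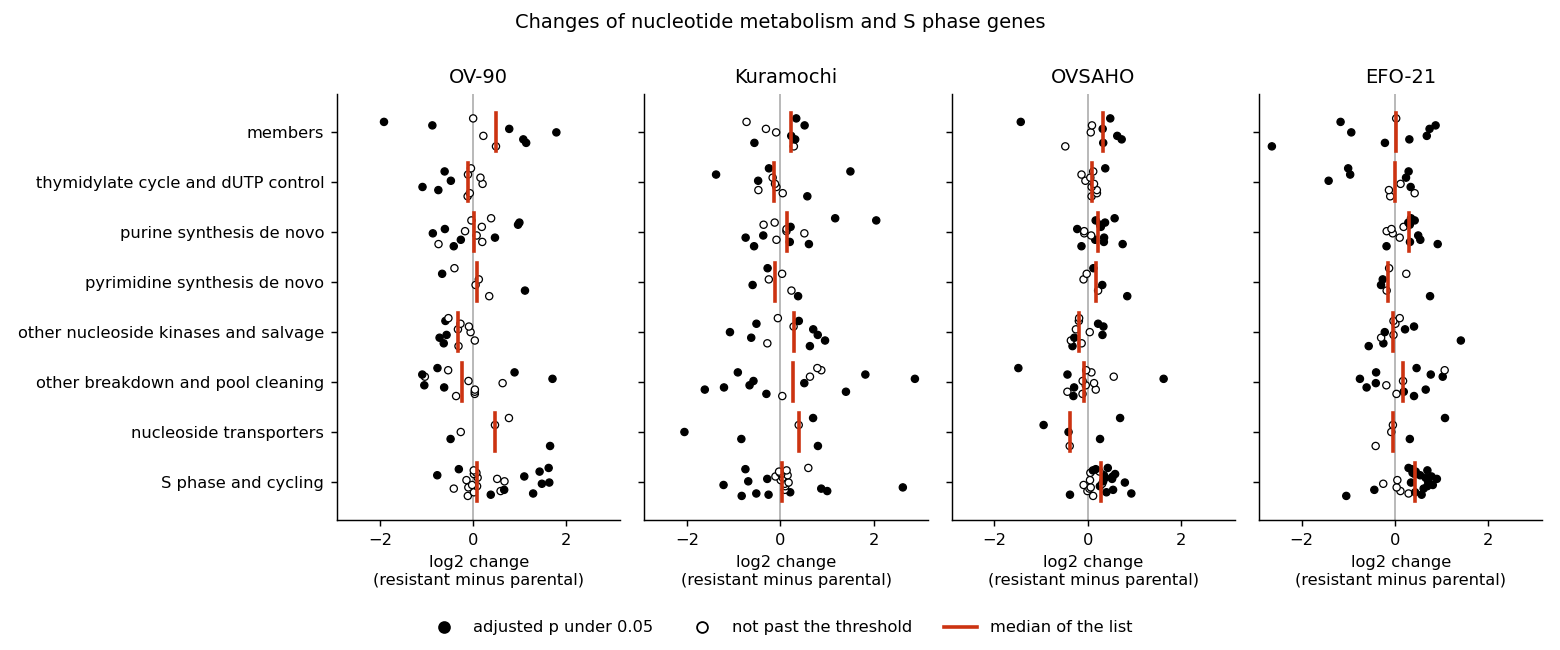
Log2 change in resistant against parental cells for each gene of 8 lists in each line, filled where the adjusted p was under 0.05 and open where it was not, with a red bar at the median of the list. The S phase list lies mostly to the right of 0 in OVSAHO and EFO-21, with medians of 0.29 and 0.43, and around 0 in Kuramochi, with a median of 0.03.

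Over the 8 group means, the levels of the members followed different orders. RRM2B and TK1 ran opposite to each other with Pearson's r of -0.93, TYMS and CDA had r of 0.91, in which 4 of the 8 CDA means lie at the low end of the scale, at 0.53 to 1.57 in Kuramochi and OVSAHO, and RRM1 and RRM2 had r of -0.06 although both rose within most lines. Parental OV-90 had the lowest RRM2B mean (4.72) and the highest TK1 mean (10.57). The group means were not corrected for GC content, in which parental OV-90 stood apart. Of 7036 genes that varied among the groups and lay above the median level, the gene most like RRM1 was WEE1 (r = 0.97), the kinase that restrains CDK1 and CDK2. The 3 genes most like RRM2 included its copy RRM2P3 (r = 0.94) beside EHBP1 and GATA6. IBTK was most like RRM2B (r = 0.99), ECT2, a regulator of cytokinesis, most like DCK (r = 0.997), HIP1R most like TYMS (r = 0.97), EPB41L1 most like TK1 (r = 0.96), TTC13 most like SAMHD1 (r = 0.98), AIFM2 most like CDA (r = 0.98) and CHCHD5 most like TYMP (r = 0.94). These values are descriptive, since the 8 points are groups from 4 lines and the best of 7036 genes was taken.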

How the data were processed

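The 23 libraries were poly(A) RNA-seq libraries made with a stranded kit. According to the labels and the study's methods, the authors aligned reads to GRCh37/hg19, summarised exons by gene with a robust linear model, or a mean of log2 exon values for 5210 genes, and quantile normalized the libraries. The deposited values are log2 levels per NCBI Gene ID, and 0 columns belonged to other samples. Columns name the line and the resistant form, from which the groups were taken. The annotation release and the strand setting of the counting are not given in the sources used here. No counts were used, so no interval for counting error was derived.

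Resistant and parental libraries were compared in each line with limma (version 3.58.1, R 4.3.3; lmFit, then eBayes with trend, two-sided, no filter, no pseudocount), with p-values adjusted over 21658 genes by the Benjamini-Hochberg method. The mean change was fitted with the line as a block, and differences of changes and parental levels with 8 group means. The 54 parental comparisons were adjusted over all genes and the 6 pairs together. Subunit balances were tested in scipy (version 1.17.1) by exact permutation. Scripts were tested on simulated data. GC content and length came from GENCODE canonical transcripts on GRCh37 for 88.1% of genes, and the corrections removed a spline trend of each library's deviations from the gene means. The p-values of the corrected fits were adjusted over the 19085 genes with these values. Promoters came from a RefSeq table of GRCh38.p14. Symbols were matched for 95.8% of the Gene IDs.

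Genes outside the members were named where they passed in at least 3 lines or changed by at least 2-fold in any line, with at most 4 per list and line, and, of these, a selection is given. Neighbours with shared exons were named for that overlap. Like genes needed an SD over the group means of at least 0.5 and a mean above the median of all genes. The members, the lists and the tests were chosen with earlier results of these data known. Alternatives covered the variance model, a filter, recentring, a floor, fold thresholds, libraries or lines left out and, chosen after the data were seen, the corrections for GC content and length and some of the fits without OV-90 or its parental libraries.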

Additional observations from a re-analysis of the deposited data

Results flagged for a closer look

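In each line, the change of a member was set against the mean change of the other 3 lines in one limma fit, and the differences that passed at an adjusted p under 0.05 are listed here on the log2 scale because the same contrast gave unequal effects in different lines. For OV-90, the change was higher than in the other lines for RRM1 (0.63), RRM2B (2.11), DCK (1.29), SAMHD1 (0.53) and CDA (1.44) and lower for RRM2 (-0.29), TYMS (-0.28), TK1 (-1.37) and TYMP (-0.80), with adjusted p of 1.06e-07 to 0.035. For Kuramochi, the change was higher than in the other lines for TYMS (0.17), TK1 (0.49), CDA (1.17) and TYMP (0.78) and lower for RRM1 (-0.39), RRM2 (-0.28), DCK (-0.98) and SAMHD1 (-0.92), with adjusted p of 1.19e-06 to 0.0253. For OVSAHO, the change was higher than in the other lines for RRM2 (0.26) and TYMS (0.36), with adjusted p of 3.85e-05 to 0.0368. For EFO-21, the change was higher than in the other lines for RRM2 (0.32), TK1 (0.96) and SAMHD1 (0.48) and lower for RRM1 (-0.40), RRM2B (-1.53), TYMS (-0.25), DCK (-0.52) and CDA (-2.74), with adjusted p of 2.05e-06 to 0.00846. The 4 contrasts use the same libraries, so these differences are not independent of each other. Their p-values use a spread pooled over all groups, although the parental OV-90 libraries were less alike than those of the other groups. The CDA differences take in the values of Kuramochi and OVSAHO, 11 of 12 of which lie in the lowest 10% of their library, so they are not measured fold differences. The TYMP, TYMS, SAMHD1, RRM2 and CDA differences of OV-90, the TYMS, TK1 and TYMP differences of Kuramochi, the RRM2 difference of OVSAHO and the DCK difference of EFO-21 no longer passed in at least 1 fit without OV-90, without a parental OV-90 library, without the variance trend or with a correction for GC content or for GC content and length. No group of 4 or more libraries was present, so single libraries were not tested as outliers.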

How the results depend on the processing

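No paired analysis was possible because the columns carry no replicate numbers. Of 9 members, OV-90 had 0 to 7 past the threshold with 1 library left out, 0 of them without resistant library 13, 14 or 15 (limma, 6 of 9 at an unadjusted p under 0.05 in each) and 7 in fits with a single parental library, assumed to vary like the resistant ones, Kuramochi had 3 to 6, and the OVSAHO contrast with the other lines had 2 to 4 with a parental OV-90 library left out. Asking for at least 2-fold left 0 in Kuramochi, 1 in OVSAHO, 2 in EFO-21 and 1 for the mean change, and at least 1.5-fold left 0 in Kuramochi and 3 in OVSAHO. The mean change had 8 past the threshold as a mean of the 4 line differences and 3 without OVSAHO. Without OV-90, the contrast with the other lines had 5 for Kuramochi and 4 for OVSAHO, and without the variance trend it had 1 for OVSAHO. The other 96 counts stayed within 1.5 times. Beside these counts, shares of all genes are given only for the 2-fold threshold in single lines. The counts are therefore not read as particular to the members. Sign changes touched only values that had not passed. In OV-90, TYMS became -0.024 with libraries recentred and -0.043 with the GC correction and ranged from -0.072 to 0.078 with 1 library left out, and RRM2 became -0.061 and -0.071 with the GC and the GC and length corrections. In Kuramochi, RRM2B became 0.008 with the GC correction and ranged from -0.22 to 0.12 with 1 library left out. In OVSAHO, RRM2B became -0.15 and -0.16 with the corrections and ranged from -0.053 to 0.24 with 1 library left out. Of the mean changes, RRM2B became -0.036 with the GC and length correction, RRM2B and DCK became -0.32 and -0.15 without OV-90 and ranged from -0.065 to 0.026 and from -0.014 to 0.088 without a parental OV-90 library, and TK1 became -0.030 and CDA 0.073 without EFO-21. In the contrasts with the other lines, RRM2B became 0.35 for Kuramochi and 0.58 for OVSAHO, SAMHD1 0.11 for OVSAHO and TYMP -0.088 for EFO-21 without OV-90, TYMP for EFO-21 became -0.16 and -0.20 with the 2 corrections, and CDA for OVSAHO ranged from -0.0078 to 0.29 without a parental OV-90 library. The causes of these shifts were not tested. Depth is unknown, and CDA in Kuramochi and OVSAHO is too low to be read.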
